A study of Mus musculus with 2 samples.

Results

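The genes of glycolysis and the citric acid cycle were compared between cerebral cortex of control mice and cortex lacking presenilin by conditional double knockout (PS cDKO), with 1 array for each genotype and mice aged 6 months. The list was drawn up by function and holds 37 genes: glucose transporters, glycolytic enzymes, lactate dehydrogenases, pyruvate dehydrogenase subunits, citric acid cycle enzymes and pyruvate carboxylase. A member was followed through every probe set that the platform annotation pairs with its symbol alone, which gave 46 of 12418 probe sets for 34 of the 37 genes, out of 8251 genes named in this way. Gpi1 and Eno1 had no such probe set. Both probe sets of Gapdh are also paired with pseudogenes, so no value is given for it. The labels name neither the presenilin alleles nor the promoter that drives recombination, and they do not say whether RNA came from 1 animal or a pool. As background not taken from the labels, the line published under this name removes presenilin function from excitatory neurons of the postnatal forebrain. With no replicate array, the spread between animals is unknown and no test of a difference was possible.

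Glycolysis splits glucose into pyruvate in the cytosol, first spending ATP on phosphorylated sugars and then regaining it. Pyruvate either becomes lactate or enters mitochondria, where the pyruvate dehydrogenase complex turns it into acetyl-CoA for the citric acid cycle, whose electrons feed the respiratory chain. In brain, where glucose is the main fuel, many steps have isozymes that differ between neurons and glia.

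Values are deposited intensities in arbitrary units, control first. Log2 ratios set PS cDKO over control, after 0.034 had been added to log2 values of the PS cDKO array to match the arrays. A ratio was given only for probe sets above a floor of 232, the 40th percentile of both scaled arrays, and the mean over these was the gene's value. Psen2, a presenilin gene, read 105 and 94.85, below the floor on both arrays, and so gave no check of the genotype. Of the members, 32 had at least 1 probe set that passed the floor in both genotypes, so that none of their ratios is a bound, while Idh3b and Idh2 stayed below it. Array probes differ in affinity, so levels of different genes are not compared.

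Most of the pathway lay slightly lower in the PS cDKO cortex. Of the 32 measured members 26 had a lower and 6 a higher signal, and the median log2 ratio was -0.18, or 1.13-fold lower. Among all 5886 measured genes the median was 0.01, with 48% lower and 51.9% higher. A log2 ratio of 0.32 in size was taken as the threshold for counting a gene. Beyond -0.32 lay 8 members (Fh1, Ldhb, Hk1, Dlat, Pfkl, Pdha1, Idh3a and Pfkm), against 8.36% of all measured genes. Beyond 0.32 lay Hk2 alone, against 8.05% of all measured genes. With the intensities as deposited these shares of all genes were 10.7% and 6.35%, and 11 members lay beyond -0.32, with Pfkp, Dlst and Pkm added. At 1.5-fold no member was lower (0.815% of all genes) and Hk2 alone was higher (1.12% of all genes). Dlst and Pfkp lay just inside the lower threshold, with log2 ratios of -0.317 and -0.315.

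**Figure D1:**
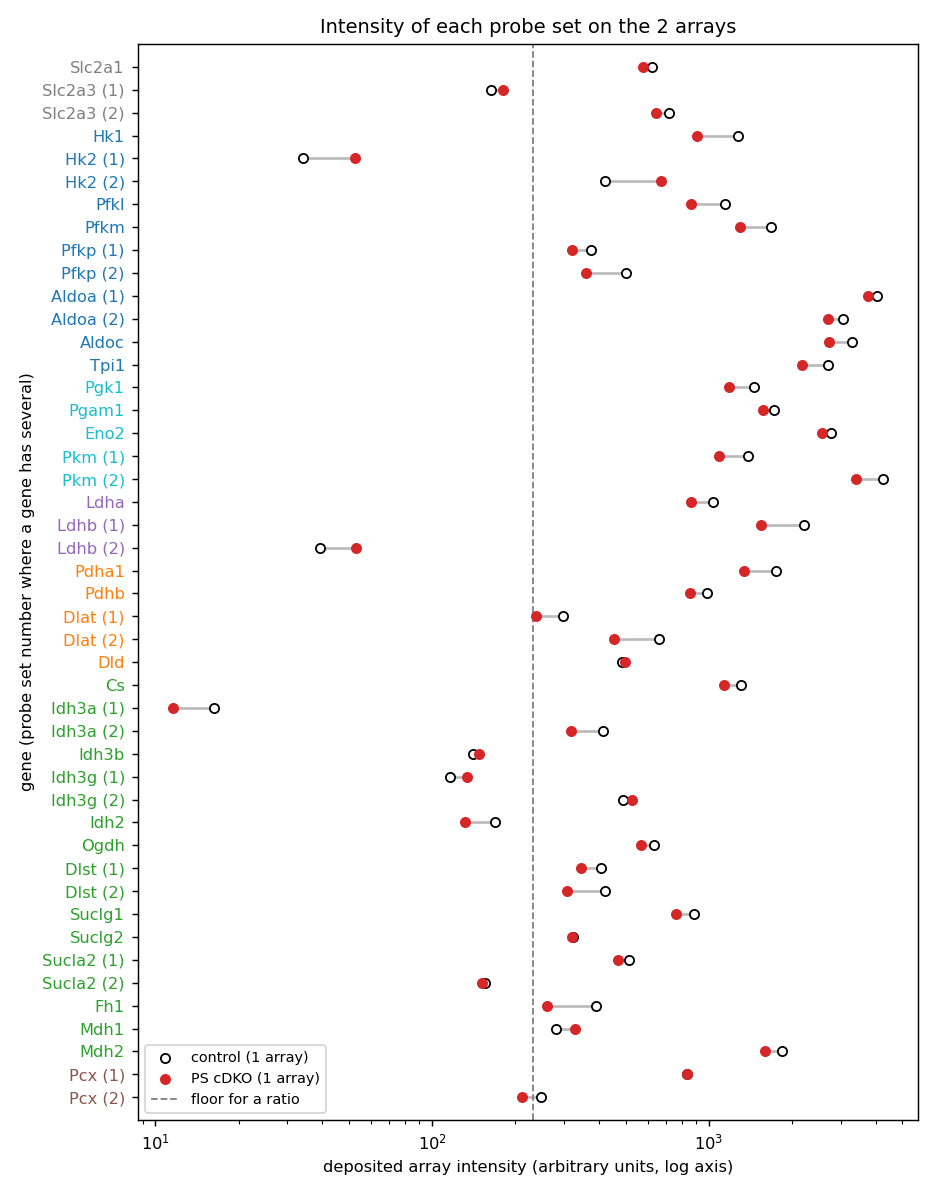
Deposited intensity (arbitrary units, log axis) of each of the 46 probe sets on the control array (open circles) and the PS cDKO array (red), with the floor of 232 as a dashed line and gene names coloured by step of the pathway. The red point lies left of the open one for most probe sets right of the floor, and furthest to the right of it there for Hk2 (421 and 670).

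Probe sets of high signal tended to read lower on the PS cDKO array whatever their gene, and many members are among them. Among genes with a mean signal of 1000 to 2000, 58.1% of 824 were lower, their median log2 ratio was -0.04, and 13.7% lay beyond -0.32. The 9 members in that range were all lower, their median was -0.35, and 5 of them lay beyond -0.32. Above 2000, where 66.9% of 175 genes were lower, all 5 members were lower at a median of -0.25 against -0.09 for all genes there. None of these 5 lay beyond -0.32, against 16% of all genes there. Between 300 and 500, where 44.7% of 1791 genes were lower, 6 of 9 members were lower, 3 of them beyond -0.32 against 7.43% of all genes in that range. Between 500 and 1000, where 49.7% of 2044 genes were lower, 6 of 9 members were lower at a median of -0.12. Of these 9 members 0 lay beyond -0.32 against 7.97% of all genes there, and Hk2 alone lay beyond 0.32 against 6.70%. After a lowess fit that removes the trend with signal, 25 of 32 members were lower, against 48.9% of all genes. The members' median was then -0.14.

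**Figure D2:**
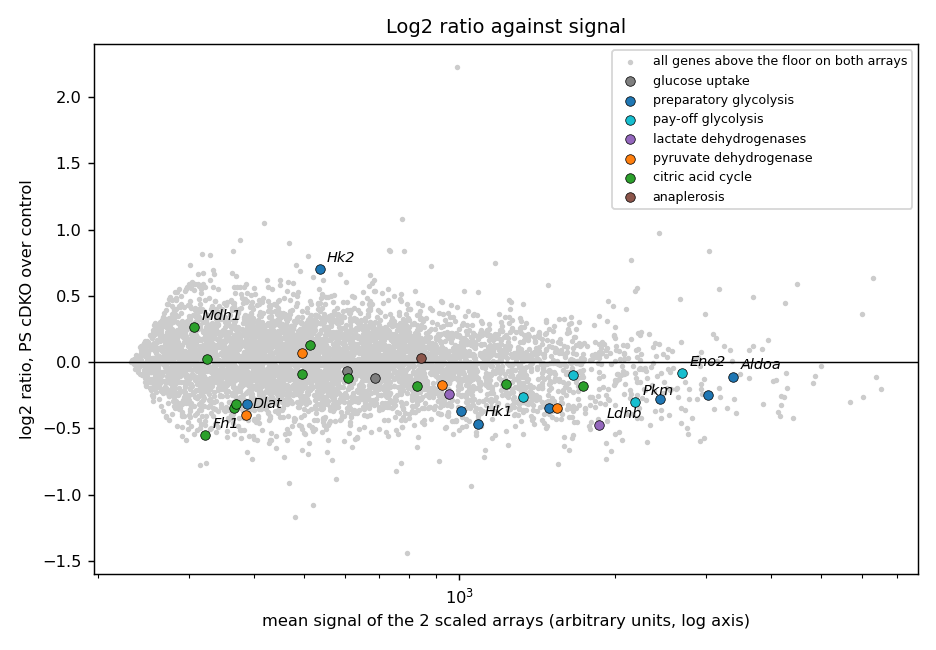
Log2 ratio of PS cDKO over control against mean signal of the scaled arrays (arbitrary units, log axis), for all genes above the floor on both arrays (grey) and for the 32 measured members, coloured by step of the pathway. All members with a signal above 1000 lie below 0, and Hk2 lies highest at 0.70.

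The only repeated measurement is that of genes with several probe sets. Over 749 such genes, the 2 brightest probe sets above the floor differed by a median of 0.20 in log2 ratio, and 95% of them by less than 0.58. Where both had a signal of at least 1000 (70 genes), the median difference was 0.15. Among the members 5 had 2 probe sets above the floor, and in all 5 both were lower. The share of the 749 genes with both lower was not counted, so that count has no background. The probe sets of Pfkp come from the same source sequence, and those of Aldoa and Pkm are all suffixed (such as _f_at). The spread between probe sets covers probes on the same arrays and not animals.

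Glucose uptake showed small differences. Slc2a1, the glucose transporter of the blood-brain barrier and of glia, read 622 in control and 579 in PS cDKO cortex, 1.05-fold lower after scaling. For Slc2a3, the main transporter of neurons, the probe set above the floor read 716 and 643, 1.09-fold lower. Its other probe set read 163 and 181, and with a floor at the 20th percentile or no floor the mean of both turned to a log2 ratio of 0.03. Both transporters thus lay within the spread between probe sets of a gene.

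The hexokinases, which trap glucose in the cell by phosphorylation, went opposite ways. Hk1, the general hexokinase of brain, read 1275 in control and 902 in PS cDKO cortex, 1.38-fold lower, and 152 of 5886 measured genes had a lower ratio. Hk2, the isozyme of muscle and fat that binds the outer mitochondrial membrane as Hk1 does, read 421 and 670, 1.63-fold higher, and only 29 genes had a higher ratio. A second Hk2 probe set read 34.1 and 52.8, far below the floor. The log2 ratios of Hk2 and Hk1 differed by 1.17, a gap beyond the 0.58 that held 95% of probe set pairs of the same gene. Under every alternative that was run, Hk2 stayed between 0.67 and 0.70 and Hk1 between -0.50 and -0.43.

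The sequences before the starts of both hexokinase genes are shown because their ratios differed most among the isozyme and subunit pairs compared. Each run holds 250 bases up to the annotated start in RefSeq (GRCm38.p6), 5′ to 3′ on the strand of the gene. Capitals mark ACGTG or GCGTG on either strand, the core letters bound by hypoxia-inducible factors, which are known to drive glycolytic genes. The Hk1 window lies at chr10:62340422-62340671 and the Hk2 window at chr6:82774455-82774704, both on the minus strand.
Hk1: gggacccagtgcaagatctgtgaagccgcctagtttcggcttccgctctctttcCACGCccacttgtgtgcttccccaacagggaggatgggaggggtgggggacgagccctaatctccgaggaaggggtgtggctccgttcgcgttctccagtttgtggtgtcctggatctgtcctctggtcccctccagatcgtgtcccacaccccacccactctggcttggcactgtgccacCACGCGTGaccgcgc
Hk2: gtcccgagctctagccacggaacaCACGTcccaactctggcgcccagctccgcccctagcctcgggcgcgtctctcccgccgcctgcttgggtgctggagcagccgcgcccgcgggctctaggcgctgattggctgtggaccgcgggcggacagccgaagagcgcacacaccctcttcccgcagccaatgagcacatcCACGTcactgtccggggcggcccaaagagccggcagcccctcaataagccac
The Hk1 window held 3 matches, of which 2 overlap, and the Hk2 window 2. A further annotated start of Hk1, at chr10:62379909-62380158, held none.

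These core letters are common. They were found in 38.6% of all 32851 windows of this length and in 37 of the 52 windows (71.2%) of the 35 members matched by symbol, windows of 1 gene often overlapping. Base composition differed too, with a median of 59.8% G and C in the members' windows and 52.4% in all. Of the 8 members beyond -0.32, 7 had a window and 6 of these held a match, as did 16 of 23 other measured members, Hk2 among them. The E-box CACGTG, which contains ACGTG, was in 6 of 52 member windows (11.5%), from 4 genes, and in 6.02% of all windows. The letters TCAAGGTCA, bound by estrogen-related receptors, which are known regulators of mitochondrial genes, were in 0 member windows and 0.387% of all. A match describes letters only.

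The 3 phosphofructokinase subunits, which form the main control point of glycolysis, were lower by like amounts. Pfkm, the muscle-type subunit, read 1680 in control and 1291 in PS cDKO cortex, 1.27-fold lower. Pfkl, the liver-type subunit, read 1141 and 864, 1.29-fold lower. For Pfkp, the platelet-type subunit, 2 probe sets made from the same source sequence read 375 against 321 and 500.4 against 360, 1.24-fold lower on average. The log2 ratios of Pfkl and Pfkm differed by 0.02 and those of Pfkp and Pfkm by 0.03, much less than the spread between probe sets. After quantile normalization and the lowess fit Pfkm was at -0.27 and -0.29 on the log2 scale, inside the limit of -0.32, while Pfkp passed it at -0.35 and -0.34.

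The aldolases cleave fructose bisphosphate. Aldoa, the general form, had 2 probe sets, at 4047 against 3764 and 3045 against 2685, and was 1.08-fold lower, though 0.03 higher on the log2 scale after the lowess fit. Aldoc, the brain form that is enriched in astrocytes of the cortex, read 3296 and 2713, 1.19-fold lower, and its log2 ratio of -0.25 was -0.11 after quantile normalization and -0.12 after lowess. Tpi1, which interconverts the triose phosphates, read 2694 and 2164, 1.22-fold lower, and -0.17 on the log2 scale after lowess. The preparatory steps together had 7 of 8 measured genes lower, with a median log2 ratio of -0.30, Hk2 being the exception, joined by Aldoa after lowess.

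The ATP-yielding steps were measured through 4 genes, none of which passed the threshold as scaled, though Pkm did with the intensities as deposited, at -0.34 on the log2 scale. Pgk1, which makes the first ATP of the pathway, read 1457 in control and 1183 in PS cDKO cortex, 1.20-fold lower. Pyruvate kinase, Pkm, which makes the last, was measured by 2 probe sets that read 4250 against 3390 and 1389 against 1089, with log2 ratios of -0.29 and -0.32 that differed by 0.025. Both are suffixed probe sets, and with such probe sets left out Pkm had no value. Pgam1, the phosphoglycerate mutase of brain, read 1719 and 1568, 1.07-fold lower. Eno2, the enolase known as neuron-specific enolase, read 2769 and 2557, 1.06-fold lower, but was at 0.05 and 0.04 on the log2 scale after quantile normalization and lowess. The 4 genes had a median log2 ratio of -0.18, 4 lower as scaled and 3 after quantile normalization and lowess.

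Both lactate dehydrogenase subunits were lower. Ldha, the subunit that favours lactate production, read 1037 in control and 859 in PS cDKO cortex, 1.18-fold lower. Ldhb, the heart-type subunit that favours lactate use and is prominent in neurons, read 2198 and 1541, 1.39-fold lower, with 139 of 5886 genes at a lower ratio. A second Ldhb probe set, far below the floor, read 39.2 and 53.25, and without a floor the mean of both came to -0.0017 on the log2 scale. The log2 ratio of Ldhb was 0.24 below that of Ldha, a gap near the median difference of 0.20 between probe sets of the same gene.

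The upstream bases of the lactate dehydrogenase genes, at chr7:46845554-46845803 on the plus strand for Ldha and chr6:142507958-142508207 on the minus strand for Ldhb, are shown with the same marking, since Ldha is a classical target of hypoxia-inducible factors.
Ldha: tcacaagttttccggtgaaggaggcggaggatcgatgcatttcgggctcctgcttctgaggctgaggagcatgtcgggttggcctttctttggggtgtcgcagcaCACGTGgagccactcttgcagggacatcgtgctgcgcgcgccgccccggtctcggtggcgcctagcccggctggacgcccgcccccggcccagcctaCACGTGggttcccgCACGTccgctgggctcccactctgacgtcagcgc
Ldhb: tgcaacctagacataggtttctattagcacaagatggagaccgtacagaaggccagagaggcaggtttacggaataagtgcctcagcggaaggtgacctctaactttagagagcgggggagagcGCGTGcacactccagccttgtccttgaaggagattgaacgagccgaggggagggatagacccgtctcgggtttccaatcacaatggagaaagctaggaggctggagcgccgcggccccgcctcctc
The Ldha window shown held 5 matches, of which 4 make up 2 E-boxes read on both strands, and the Ldhb window 1. A further annotated start of Ldha, at chr7:46846832-46847081, held 1 match and no E-box.

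**Figure D3:**
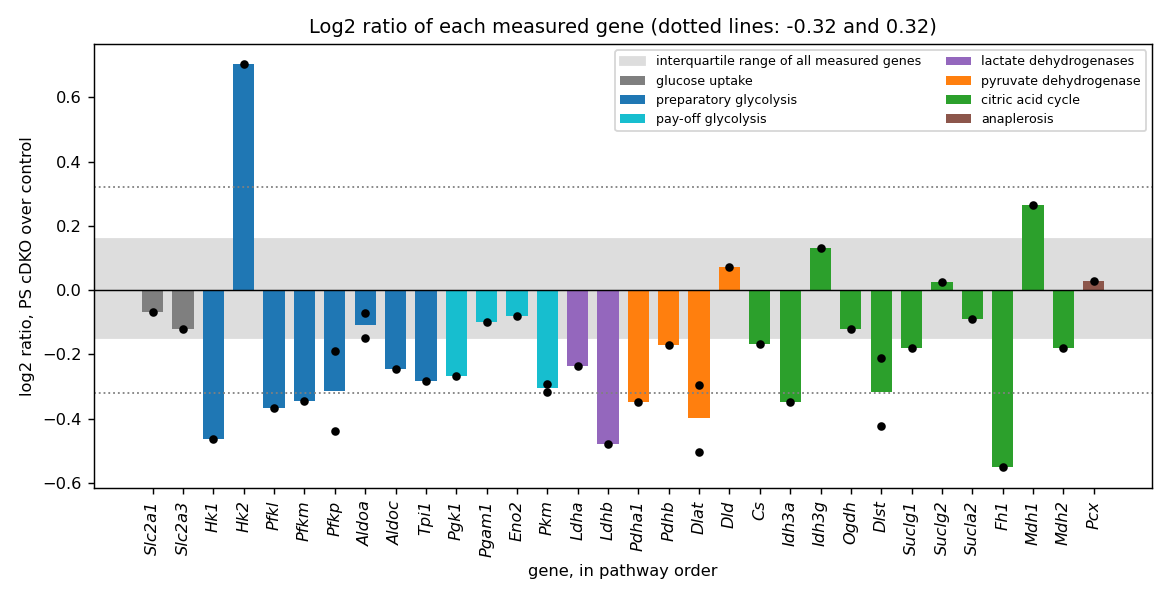
Log2 ratio of PS cDKO over control for the 32 measured members in pathway order, with bars for the gene value, black points for each probe set above the floor, the interquartile range of all measured genes in grey and dotted lines at -0.32 and 0.32. Most bars point down, 8 of them past the lower line, and Hk2 alone passes the upper one.

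Pyruvate dehydrogenase links glycolysis to the cycle, and its subunits differed. Pdha1, the catalytic E1 alpha subunit, read 1742 in control and 1338 in PS cDKO cortex, 1.27-fold lower, though its log2 ratio of -0.35 was -0.28 after quantile normalization and -0.29 after lowess. Its partner Pdhb, the E1 beta subunit, read 982 and 852, 1.13-fold lower. The E2 core subunit Dlat had 2 probe sets, at 660.5 against 455 and 297.5 against 237, and was 1.32-fold lower, with log2 ratios of -0.50 and -0.30. Dld, the E3 subunit that this complex shares with 2-oxoglutarate dehydrogenase and other complexes, read 483 and 496, 1.05-fold higher. The gap of 0.47 between Dld and Dlat was within the 0.58 that held 95% of probe set pairs.

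The citric acid cycle had 8 of 11 measured genes lower (9 as deposited and after quantile normalization and lowess), with a median log2 ratio of -0.17. Fh1 and Idh3a lay beyond -0.32 and no gene of the cycle beyond 0.32. Cs, citrate synthase, which starts the cycle, read 1304 in control and 1135 in PS cDKO cortex, 1.12-fold lower. The subunits of NAD-dependent isocitrate dehydrogenase read in opposite directions. Idh3a, the catalytic subunit, read 414 and 318, 1.27-fold lower, whereas the regulatory subunit Idh3g read 490 and 525, 1.10-fold higher. Their log2 ratios differed by 0.48, within the 0.58 that held 95% of probe set pairs. Another regulatory subunit, Idh3b, lay below the floor at 141 and 148, as did the NADP-dependent mitochondrial isozyme Idh2 at 169 and 131. With a floor at the 60th percentile Idh3a gave only a bound of -0.04 on the log2 scale.

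Of the 2-oxoglutarate dehydrogenase complex, the E1 subunit Ogdh read 634 and 570.2, 1.09-fold lower. Its E2 subunit Dlst had probe sets at 420 against 306 and 407 against 344, with log2 ratios of -0.42 and -0.21, and only a bound of -0.04 with a floor at the 60th percentile. Succinyl-CoA ligase pairs the alpha subunit Suclg1 with either of 2 beta subunits. Suclg1 read 881 and 759.8, 1.13-fold lower. Sucla2, the beta subunit of the ATP-forming enzyme that predominates in brain, read 513 and 471, 1.06-fold lower, with a further probe set below the floor at 155.02 and 150.95. The beta subunit of the GTP-forming enzyme, Suclg2, read 322 and 319.8, a log2 ratio of 0.02 that was -0.03 after quantile normalization and lowess and -0.01 as deposited.

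Fh1, fumarase, had the lowest ratio of all members. It read 391 in control and 260.3 in PS cDKO cortex, 1.47-fold lower, and 65 of 5886 genes had a lower ratio. Its PS cDKO signal was close to the floor of 232, and with a floor at the 60th percentile it had no ratio. Its log2 ratio was -0.60 after quantile normalization and after lowess. The 250 bases before its start, at chr1:175625636-175625885 on the minus strand, are shown for this lowest member and hold 1 of the core matches, next to the start.
Fh1: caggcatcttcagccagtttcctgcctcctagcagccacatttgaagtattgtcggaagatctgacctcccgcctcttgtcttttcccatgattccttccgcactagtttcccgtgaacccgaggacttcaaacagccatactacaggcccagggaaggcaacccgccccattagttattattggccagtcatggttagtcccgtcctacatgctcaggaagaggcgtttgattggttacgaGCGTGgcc
The malate dehydrogenases also read in opposite directions. Mdh2, the mitochondrial enzyme that closes the cycle, read 1843 and 1589.7, 1.13-fold lower, while the cytosolic Mdh1 of the malate-aspartate shuttle read 280.1 and 329, 1.20-fold higher. Their log2 ratios differed by 0.44, within the range of 95% of probe set pairs, and Mdh1 stayed higher in every alternative that gave a value. Pcx, pyruvate carboxylase, which refills the cycle and in brain is largely an enzyme of astrocytes, read 834 and 832 in its brighter probe set, a log2 ratio of 0.03 that was -0.0050 as deposited. The other Pcx probe set read 247 and 211, and the mean of both was -0.08 with a floor at the 20th percentile or none.

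**Figure D4:**
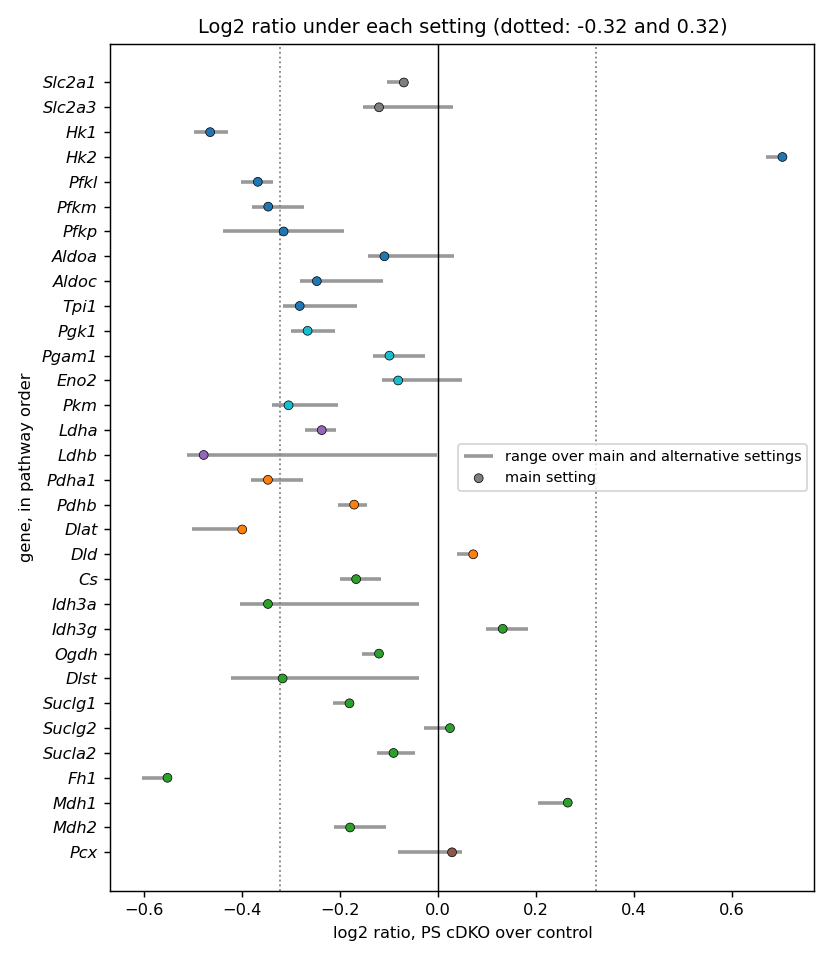
Log2 ratio of each of the 32 measured members in the main setting (points, coloured by step of the pathway) with the range over the main and 9 alternative settings (grey lines), 0 as a solid line and the thresholds of -0.32 and 0.32 as dotted lines. Hk2 keeps to the right of its dotted line and Hk1, Pfkl, Dlat and Fh1 to the left of theirs, whereas the line for Ldhb reaches 0.

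Related genes that are no members did not all follow. Of 9 measured other isozymes and regulators of glycolysis, 8 were higher (median log2 ratio 0.08), and 7 were higher after quantile normalization and lowess. The glucose transporters Slc2a2, of liver and pancreas, and Slc2a4, the insulin-responsive form, were 1.45-fold (245 against 348) and 1.40-fold higher (457 against 622). Pfkfb3, which makes the activator of phosphofructokinase, was 1.15-fold and Eno3, the muscle enolase, 1.12-fold higher. In lactate and pyruvate transport, 2 of 4 measured genes were lower. Bsg, the chaperone of monocarboxylate transporters, was 1.28-fold lower (1414 against 1083), though not past the threshold after quantile normalization or lowess. Slc16a8, itself such a transporter, was 1.22-fold lower, and the mitochondrial pyruvate carrier subunit Mpc1 was 1.11-fold and Emb 1.05-fold higher.

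Among regulators of pyruvate dehydrogenase and further enzymes of the cycle, 5 of 9 measured genes were lower (median -0.18). The median was -0.11 after quantile normalization and -0.12 after lowess. Without suffixed probe sets, which leaves out Sdhb, 4 of 8 were lower and the median was -0.07. The iron-sulfur subunit of succinate dehydrogenase, Sdhb, was 1.40-fold lower (919 against 639) and Acly, which makes cytosolic acetyl-CoA, 1.23-fold lower. Cytosolic Idh1 was 1.35-fold higher (371 against 488) and Pck1 of gluconeogenesis 1.21-fold higher. Of 5 genes of the pentose phosphate pathway, the transketolase Tkt was 1.28-fold lower (614 against 469) and the others lay between -0.11 and 0.07 on the log2 scale, with 2 of 5 lower as scaled and 4 of 5 as deposited. In the malate-aspartate and glycerol phosphate shuttles 2 of 4 genes were lower (3 as deposited), with Gpd2 1.34-fold lower and Got2 1.16-fold higher. The values of Gpd2 and Got2 rest on suffixed probe sets, and with such probe sets left out neither gene had a ratio. In glycogen metabolism 2 of 4 were lower (3 after quantile normalization and lowess, and as deposited) and glycogen phosphorylase of brain, Pygb, was 1.35-fold higher. Of 3 glutamate and glutamine enzymes none passed the threshold, and Glul, the glutamine synthetase of astrocytes, was at -0.11 on the log2 scale and at -0.01 and 0.0014 after quantile normalization and lowess.

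Markers of cell types moved between the same arrays. Of 11 measured neuron markers 8 were lower (median log2 ratio -0.20), 5 of them beyond -0.32 (4 after quantile normalization and lowess). Their intensities summed to 21489 in control and 17122 in PS cDKO cortex, and none was below the floor on both arrays. Of 8 measured astrocyte markers 7 were higher (median 0.34), at sums of 6516.5 and 10389, and Fgfr3 lay below the floor. Much of that rise came from Gfap, the intermediate filament of astrocytes, whose 2 probe sets summed to 646 and 3508. Without Gfap the astrocyte sums were 5870.3 and 6881, a ratio of 1.17 in place of 1.59. The 8 measured microglia markers all read higher (median 0.62), at sums of 4462 and 6857, and Aif1, Fcer1g and Ly86 lay below the floor. Oligodendrocyte markers had 4 of 6 genes lower with sums of 10216 and 9000.5, and blood markers 2 of 3 with sums of 2803 and 2274. These sums also turned on 1 gene each, reading 5299 and 5435 without the myelin gene Mobp, and 699.55 and 775 without the globin gene Hba-a1. The gene left out was the one whose summed intensity moved most in its list, chosen after its values were seen. In the other lists the ratio of the sums moved less. Without Snap25 that of the neuron markers was 0.809 in place of 0.797. Without C1qa that of the microglia markers was 1.47 in place of 1.54, and without Cldn5 that of the endothelial and mural markers 0.993 in place of 0.963. Endothelial and mural markers had 2 of 5 lower (3 as deposited and after quantile normalization and lowess), with sums of 2907 and 2799.8. The part of these shifts in the ratios of the pathway was not tested, and in bulk cortex fewer cells of a type cannot be told apart from less RNA per cell.

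**Figure D5:**
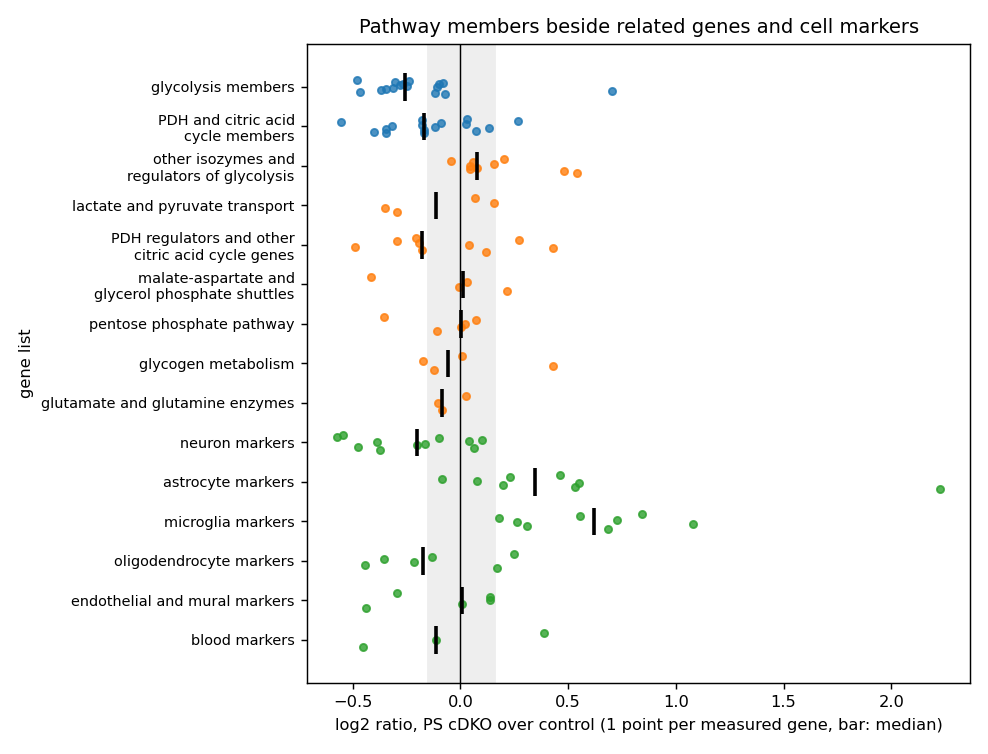
Log2 ratio of PS cDKO over control for each measured gene (points) and the median (black bars) of the members (blue), the related lists (orange) and the cell marker lists (green), with the interquartile range of all measured genes in grey. The bars of the glycolysis members (-0.26), of the pyruvate dehydrogenase and citric acid cycle members (-0.17), of the regulators of pyruvate dehydrogenase and further cycle enzymes (-0.18), of the neuron markers (-0.20) and of the oligodendrocyte markers (-0.17) lie left of the grey band, and those of the astrocyte (0.34) and microglia markers (0.62) right of it.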

How the data were processed

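Cortical total RNA was hybridised to 2 arrays, 1 per genotype. The deposited table holds 1 linear intensity per probe set and array; what the authors did to make these intensities (software, background, scaling) was not given in the sources used here. Some subtraction had been applied, since 13 control and 18 PS cDKO intensities were negative. The column medians were 299.65 and 305. The number of arrays limits the precision.

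Of 12418 probe sets 10829 had 1 gene symbol in a platform annotation that can be old, 396 several and 1193 none; 10813 matched RefSeq (GRCm38.p6) by gene ID. The PS cDKO array was scaled to a median log2 ratio of 0, taken over the probe sets that ranked in the upper part, above the median, of each array. Signals below the floor were set to it before log2. A gene below it on 1 array only has a bound. This left 5886 measured genes, 472 of them with a bound. Genes were counted beyond 0.32 on the log2 scale, with no test. All members are named, with Psen2 and up to 4 genes per related list by largest absolute log2 ratio. The members and lists were chosen with earlier results of these data known.

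Alternatives were the intensities as deposited, quantile normalization, lowess (span 0.3), other floors (20th and 60th percentiles, or none, with signals below 1 set to 1), the brightest probe set, leaving out suffixed probe sets (such as _f_at), genes above the floor on both arrays, and a 1.5-fold threshold. The steps were tested on simulated data. Python 3.11.15, numpy 2.4.6, pandas 2.3.3, statsmodels 0.14.6 and matplotlib 3.10.9 were used.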

Additional observations from a re-analysis of the deposited data

How the results depend on the processing

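No paired analysis was possible because each genotype has 1 array, and for the same reason none was left out. Over the alternatives the members' median log2 ratio ran from -0.21 to -0.14, that of the glycolysis genes from -0.29 to -0.19, and that of the pyruvate dehydrogenase and citric acid cycle genes from -0.20 to -0.12. Between 23 and 28 members were lower, of 28 to 34 measured, against 43.3% to 53.7% of all measured genes. Between 6 and 11 members lay beyond -0.32, against 8.17% to 10.7% of all genes. At a threshold of 1.5-fold 0 members were lower, against 0.815% of all genes. The number beyond -0.32 was 8 both as scaled and after lowess, but after lowess Pfkm and Pdha1 dropped out and Pfkp and Dlst entered. In all, 23 of 32 members were lower and 4 higher in every alternative that gave a value, and 4 lay beyond -0.32 in each. The same was not counted over all measured genes, so these counts have no background, and every alternative re-used the same 2 arrays. The median of all genes moved by less than 0.1. With a floor at the 60th percentile Fh1, Mdh1 and Suclg2 had no ratio, and Idh3a, Dlst and Pfkp only a bound. Without suffixed probe sets Aldoa, Pkm, Sucla2 and Pcx had no ratio.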
